A study of Catostomus macrocheilus with 21 samples.

Results

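LSS_UF_10838 is a probe on a 1-colour Agilent array made for the largescale sucker (Catostomus macrocheilus), a bottom-feeding freshwater fish. Its level in liver RNA differed more between fish than that of any of the other 100 probes described here, from 3.51 in one fish to 17.20 in another on the authors' log2 scale. The members described are LSS_UF_10838 and the 100 probes whose levels followed it most closely over 21 fish. The 100 were picked from 11040 probes with a signal well above background on at least 6 of the 21 arrays, out of 14758 non-control probes on the array. The mean of each collection site was first subtracted from every probe, and the Pearson r with LSS_UF_10838 was then taken over the 21 fish. Levels and r thus chose the probes, so levels, ranges and gaps between fish are given below as a description with no test. The site means were not used in the choice, and differences between sites were tested. The choice still bears on that test, since it favours probes with a wide spread between fish of a site.

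The fish were wild adults in reproductive condition, caught at 3 places along the Columbia River for a study of accumulated contaminants and gene response. The groups are Longview with 7 fish, Columbia City with 6 fish and Skamania with 8 fish, and each array held the liver RNA of 1 fish. The labels state no sex, age, size or contaminant level for any fish, and no strain, treatment or genotype separates the groups. The probes carry the names of assembled or single sequences and no gene name. So the liver label could not be set against marker genes here, no probe is assigned a function, and no probe sequence is shown.

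As background, the liver of egg-laying fish secretes most plasma proteins, and in maturing females it also makes yolk precursors and egg-coat proteins under the control of estrogen. Liver genes can therefore differ greatly between fish of one population with sex, maturity, diet and exposure. Since the probes are not tied to genes, none of this is read into them. In a bulk sample of liver, fewer cells of a type and less RNA per cell cannot be told apart.

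The levels of LSS_UF_10838 were spread over 13.70 log2 units. At Longview its log2 level was 13.29, 16.58, 12.97, 15.24, 9.62, 9.0 and 13.15 in fish 1 to 7. At Columbia City it was 16.54, 6.47, 5.35, 3.51, 5.36 and 17.20 in fish 1 to 6. At Skamania it was 17.17, 17.20, 5.75, 7.54, 16.96, 5.07, 16.99 and 16.90 in fish 1 to 8. At Columbia City and Skamania the fish were either at 7.54 and lower or at 16.54 and higher. Longview 2, at 16.58, was in that higher range, and the other Longview fish lay between, at 9.0 to 15.24. The site ranges overlapped.

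The processed signal of LSS_UF_10838, in linear units of scanner brightness, was 11.8 in Columbia City 4 and 143690 in Skamania 2. Columbia City 4 was the one array on which it was not well above background, so its lowest level is in background. In 9 fish its signal came from the weaker of the scanner's 2 scan settings, scaled up. These fish were Longview 2 and 4, Columbia City 1 and 6, and Skamania 1, 2, 5, 7 and 8. No spot was saturated. The 6 highest levels lay between 16.90 and 17.20.

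The r of the 100 other members with LSS_UF_10838 ran from 0.894 to 0.977. The 10 with the highest r were LSS_UF_21478 (0.977), LSS_UF_14073 (0.977), LSS_UF_13540 (0.974), LSS_UF_11171 (0.971), LSS_UF_17025 (0.963), LSS_UF_14087 (0.961), LSS_UF_10229 (0.961), LSS_UF_16828 (0.960), LSS_UF_23859 (0.960) and LSS_UF_24500 (0.959). The members also followed each other, with r from 0.705 to 0.997 and a median of 0.933 over the 5050 pairs, as the choice by r with 1 probe favours. All these r share the same 21 arrays.

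The edge of the set was not marked by a drop in r. Just inside were LSS_UF_19888 (0.895), LSS_UF_16131 (0.894) and LSS_UF_23890 (0.894), and just outside were LSS_UF_18130 (0.892), LSS_UF_17650 (0.892) and LSS_UF_20947 (0.892). LSS_UF_17650, left out, had a range of 5.22 log2 units and a jump of 1.35 between neighbouring fish, so it resembled members. In all, 274 probes other than LSS_UF_10838 had an r above 0.8, and 83 had an r below -0.8. The probe with the lowest r was LSS_UF_11351 (-0.896), whose levels ran only from 8.73 to 11.50.

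Most members differed widely between fish. The range from the lowest to the highest fish had a median of 5.14 log2 units over the members (2.03 to 13.70), beside a median of 2.43 over all probes tested. A range of at least 4 log2 units was found in 74 members (73.3%), against a background of 16.2% of all probes tested. A range of at least 8 log2 units was found in 15 members (14.9%), against 1.08%. Both counts stem from values that chose the members.

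The 5 members with the largest ranges were LSS_UF_10838 (13.70 log2 units), LSS_UF_14073 (12.70), LSS_UF_16131 (12.02), LSS_UF_11171 (9.96) and LSS_UF_21478 (9.68). At the other end, LSS_UF_19618 (2.03), LSS_UF_19838 (2.18), LSS_UF_22126 (2.26), LSS_UF_16778 (2.41) and LSS_UF_22722 (2.42) had the smallest. A high r therefore went with changes in level of very different size. LSS_UF_16778, at r 0.948, ran from 5.79 in Columbia City 3 to 8.20 in Skamania 5.

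The members were neither mainly bright nor mainly dim probes. Their mean levels had a median of 6.95 (3.59 to 15.40), beside 7.38 for all probes tested. The brightest were LSS_UF_17703 (13.52 to 17.27 over the fish), LSS_UF_21310 (12.44 to 15.97) and LSS_UF_10410 (12.27 to 16.28). The dimmest were LSS_UF_17783, LSS_UF_14478 and LSS_UF_21866, each well above background on 8 arrays.

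Being well above background on every array was less common among members than among all probes tested, with 43 members (42.6%) and 64.1% of all probes. In Columbia City 5, 45 members were well above background, whereas every member was in Skamania 2, Skamania 7 and Columbia City 6. For the other 58 members the lowest levels lie in or near background, so their ranges and gaps depend on how background was treated. A member seen on few arrays passed the filter through the fish where it was high.

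Steps were common among the members. The 21 levels of a probe were sorted, and the largest gap between neighbouring fish with at least 3 fish on each side was taken. A probe was called stepped if this gap was at least 1 log2 unit and at least 0.25 of its range, and graded otherwise. By this rule 61 members (60.4%) were stepped, against a background of 2.43% (268 of 11040 probes). Among probes well above background on all 21 arrays, 24 of 43 members (55.8%) were stepped, against 1.16%. The choice by r with a widely spread probe favours such patterns, so the excess is not independent of the rule. The count was 36 with another background correction (normexp) and 11 when the site means were subtracted first.

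The gap split the fish in the same place in most members. In 67 members, 54 of them stepped, the fish above it were Longview 2 and 4, Columbia City 1 and 6, and Skamania 1, 2, 5, 7 and 8. The same 9 fish lay above the largest gap in 0.942% of all probes tested (104 probes). In 9 more members the set was the same without Longview 4. All 3 sites had fish on both sides of the common gap: 2 above and 5 below at Longview, 2 above and 4 below at Columbia City, and 5 above and 3 below at Skamania. The 9 fish are the same ones in which LSS_UF_10838 was read from the weaker scan. They are also the 9 fish with its highest levels, at 15.24 or more, so the match is not a separate result.

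LSS_UF_15167 had the widest step for its range. Its log2 levels at Longview were 3.20, 10.55, 2.43, 10.71, 4.13, 3.72 and 2.33 in fish 1 to 7. They were 10.34, 4.22, 2.15, 2.50, 4.55 and 11.06 at Columbia City in fish 1 to 6. At Skamania they were 11.26, 9.22, 2.51, 2.30, 10.73, 2.25, 10.49 and 10.77 in fish 1 to 8. The 12 lower fish reached 4.55 and the 9 higher fish began at 9.22, so the gap of 4.67 took 0.513 of the range. It was well above background on 10 arrays, so most of its low levels are in background.

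LSS_UF_24272 showed the step without that limit, since it was well above background on all 21 arrays. Its levels at Longview were 9.14, 12.24, 8.71, 12.20, 7.87, 8.82 and 8.33 in fish 1 to 7. At Columbia City they were 12.78, 8.51, 8.40, 8.04, 7.87 and 13.62 in fish 1 to 6. At Skamania they were 13.69, 12.05, 7.56, 7.44, 12.82, 8.05, 13.31 and 12.78 in fish 1 to 8. No fish lay between 9.14 and 12.05. The gap of 2.92 took 0.467 of the range.

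LSS_UF_21643 (0.494 of the range), LSS_UF_16820 (0.465) and LSS_UF_24489 (0.456) completed the 5 with the largest gap share. LSS_UF_16820 was also well above background on all arrays, with a gap from 7.53 to 9.92. LSS_UF_21643 had a gap from 3.71 to 7.57 and LSS_UF_24489 from 4.20 to 6.08. All 5 had the same 9 fish above the gap.

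LSS_UF_10838 itself was graded by the rule, and narrowly so. Its largest gap, 3.36 log2 units from 9.62 in Longview 5 to 12.97 in Longview 3, took 0.245 of its range. This gap lay lower down the order of fish than in most members and left 12 fish above it, with Longview 1, 3 and 7 added to the common 9. LSS_UF_14073 and LSS_UF_10394 were split in the same place. LSS_UF_14073, second in r, shows this graded form.

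The levels of LSS_UF_14073 at Longview were 9.69, 14.59, 8.85, 11.99, 6.48, 6.24 and 9.78 in fish 1 to 7. At Columbia City they were 14.99, 4.23, 4.14, 4.87, 2.29 and 13.53 in fish 1 to 6. At Skamania they were 14.78, 13.98, 4.04, 4.59, 13.96, 3.93, 14.14 and 14.64 in fish 1 to 8. The 5 lower Longview fish filled the space between 6.24 and 9.78, below all fish of the common set. Longview 4, at 11.99, stood alone between 9.78 and 13.53.

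In total 40 members were graded. In 39 the gap share was under 0.25, and in LSS_UF_21310 the gap was just under 1 log2 unit (0.96). The smallest gap shares were those of LSS_UF_12808 (0.102), LSS_UF_22818 (0.108), LSS_UF_16778 (0.116), LSS_UF_22722 (0.118) and LSS_UF_22126 (0.127). All 5 had ranges under 3 log2 units. LSS_UF_16778 shows what a graded member of small range looked like. At Longview it had 6.83, 7.41, 7.04, 7.31, 5.90, 6.27 and 6.74 in fish 1 to 7, at Columbia City 7.99, 6.48, 5.79, 5.99, 5.86 and 7.77 in fish 1 to 6, and at Skamania 8.12, 7.62, 6.63, 6.74, 8.20, 6.37, 8.10 and 7.56 in fish 1 to 8. Here the 9 fish of the common set were still the 9 highest, with no wide gap below them, at 7.31 in Longview 4 against 7.04 in Longview 3. Members of small range were thus among the least stepped, while LSS_UF_14073 and LSS_UF_16131 were graded over ranges of 12 log2 units or more.

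Placing every fish between the lowest (0) and the highest (1) fish of each member shows which fish set the pattern. Columbia City 6 had the highest median position over the members, 0.993, and was the highest fish of 49 members. Columbia City 1 had a median position of 0.933 and was highest in 22 members, and Skamania 1 had 0.919 and was highest in 13. Skamania 2 had the second highest level of LSS_UF_10838 but a median position of 0.728, and was the highest fish of no member. The order of fish in LSS_UF_10838 was therefore not the order in the members at the upper end.

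Longview 4 took a place of its own. Its median position was 0.668 (0.257 to 1.00). It was above Longview 1, 3, 5, 6 and 7 in 97 members and below the other 8 fish of the common set in 62 (61.4%). The exceptions included LSS_UF_15167, in which it was near the top at 10.71. In LSS_UF_24373, which followed both patterns, it had 3.13 and lay below the largest gap.

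The other Longview fish had lower median positions. Longview 1 had a median position of 0.295, Longview 3 of 0.25, Longview 7 of 0.248, Longview 6 of 0.190 and Longview 5 of 0.133. Longview 5, 6 and 7 were the lowest of all fish in 5, 6 and 7 members, and Longview 3 in 1. In LSS_UF_10838, Longview 1 was at 0.714 of the range, higher than in any other member. Longview 3 reached 0.723 in another member, LSS_UF_14992, above its place in LSS_UF_10838. Longview 3 and Longview 7 were each above 0.25 of the range in 50 members and Longview 1 in 58. This cut lies near the median positions of these 3 fish. Longview 6 was above it in 30 members and Longview 5 in 13. At the other sites, fish below the common gap had median positions from 0.0587 (Skamania 3) to 0.169 (Columbia City 3). In Columbia City 3 the 75th percentile of the positions was 0.260. A place above 0.25 thus does not by itself mark an intermediate level.

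The fish with the lowest levels varied among members. Skamania 3 was the lowest fish of 20 members, Skamania 4 of 17, Columbia City 5 of 14 and Skamania 6 of 10. Columbia City 4, the lowest in LSS_UF_10838, was lowest in 9. Single members broke the pattern, such as LSS_UF_16131, in which Columbia City 5 reached 8.34.

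The sites were compared to ask whether these probes differed with the place of collection. Lower mean levels at Longview and at Columbia City than at Skamania were common to nearly all members, but no member passed the test. For Longview minus Skamania, 0 members had an adjusted p under 0.05 (limma, two-sided, Benjamini-Hochberg over 11040 probes), against a background of 1.54% of all probes tested (170 probes). The count was also 0 for Columbia City minus Skamania (0% of all probes) and for Longview minus Columbia City (0%). In the F test over the 3 sites it was 0, against 0.915%. The spread between fish of a site is the error in these tests. The choice favours members with a wide spread, so few calls among them are not independent of the rule. At an unadjusted p under 0.05 there were 4 members for Longview minus Skamania (11.7% of all probes), 0 for Columbia City minus Skamania (7.12%), 0 for Longview minus Columbia City (9.62%) and 1 in the F test (beside 1218 of all probes). The 4 were LSS_UF_24373, LSS_UF_14204, LSS_UF_21866 and LSS_UF_22070, the last of them named after its values were seen, and all 4 were lower at Longview. The 1 in the F test was LSS_UF_24373. These unadjusted counts moved with single fish, and so did the counts over all 11040 probes, given in brackets. For Longview minus Skamania there were 13 members without Longview 2 (1523), 9 without Longview 4 (1359) and 11 without Skamania 3 (1447). There were 10 each without Skamania 4 (1404) and without Skamania 6 (1374), and as few as 1 without others, such as Longview 1 (1114). For Columbia City minus Skamania there were 10 without Columbia City 6 (1194), 5 without Columbia City 1 (870) and 3 without Skamania 3 (853). There were 2 without Skamania 6 (1240) and 1 without Skamania 4 (705). Arrays were also weighted by how closely their values over all probes followed the site means (limma array weights). The counts were then 50 for Longview minus Skamania (2016), 54 for Columbia City minus Skamania (1790) and 42 in the F test (2298). These weights come from the same values and give less weight to fish far from their site mean. They are not a separate measure of array quality.

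By direction alone, 100 members had a lower mean at Longview than at Skamania, with a median difference of -1.0 log2 units, against 48.7% of all probes and a median of 0.01. For Columbia City minus Skamania 100 were lower too, with a median of -0.80, against 49.1% and 0.01. The size of that median turned on single fish, at -1.36 without Columbia City 6, -1.32 without Columbia City 1 and -0.54 without Columbia City 5. It was -1.72 with array weights, but -0.35 with normexp. Within slide 1, which held only 1 Columbia City fish (Columbia City 5), it was -2.31. Within slides 2 and 3 it was only -0.34 and -0.44, with 77 and 84 members lower. For Longview minus Skamania the median was -1.71 with array weights, -1.81 within slide 1 and -0.56 with normexp. Within slides 2 and 3 it was -0.24 and -0.89, with 74 and 95 members lower. For Longview minus Columbia City 72 were lower, with a median of -0.25, against 49.7% and 0.00. That direction did not hold without single fish: 25 were lower, with a median of 0.31, without Columbia City 6, and 32, with a median of 0.22, without Columbia City 1. Within slide 1, with its 1 Columbia City fish, the median was 0.31. Both comparisons with Skamania share its 8 fish, and the members rise and fall together over the same fish, so these counts are not separate pieces of evidence. Above the common gap lay 2 of 7 Longview, 2 of 6 Columbia City and 5 of 8 Skamania fish.

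LSS_UF_10838 averaged 12.84 ± 2.75 at Longview (SD, n = 7), 9.07 ± 6.12 at Columbia City (n = 6) and 12.95 ± 5.70 at Skamania (n = 8). The difference between Longview and Skamania was -0.11 log2 units (SE 2.43, limma adjusted p = 0.991). Columbia City minus Skamania was -3.88 (SE 2.53, limma adjusted p = 0.729), and Longview minus Columbia City was 3.76 (SE 2.61, limma adjusted p = 0.683). Each difference was within the spread between fish. Within slides 1, 2 and 3, Longview minus Skamania was -2.43, 1.55 and 1.03, so its sign was not stable. The SD was smallest at Longview, where the lowest level was 9.0, and the difference in SD was not tested.

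LSS_UF_24373 came nearest to the threshold. Its log2 levels at Longview were 2.03 at the lowest, 2.31 at the median and 4.01 at the highest. At Columbia City they were 2.40, 3.29 and 5.77, and at Skamania 2.46, 5.52 and 6.30. Its mean was 2.69 ± 0.70 at Longview (SD, n = 7), 3.84 ± 1.5 at Columbia City (n = 6) and 4.84 ± 1.41 at Skamania (n = 8). Longview minus Skamania was -2.16 (SE 0.61, limma adjusted p = 0.0858), and the groups overlapped. It was well above background on only 7 arrays, and without Skamania 3 it was the 1 member called.

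The next smallest p-values belonged to dim probes too. LSS_UF_14204 differed by -2.23 between Longview and Skamania (SE 0.96, limma adjusted p = 0.356), with levels of 2.31 to 5.83 at Longview and 2.23 to 8.19 at Skamania. LSS_UF_21866 differed by -1.85 (SE 0.83, limma adjusted p = 0.385), with levels of 1.82 to 5.49 at Longview and 1.88 to 5.93 at Skamania. In both, the ranges of the sites overlapped, but in LSS_UF_14204 the levels of 5 of 8 Skamania fish were above those of every Longview fish.

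LSS_UF_10410 shares an assembly group with LSS_UF_10411, which moved the other way. Contigs of one group carry the same group number in their names, and what the probes of a group have in common in sequence was not examined. LSS_UF_10410 had a lowest, median and highest level of 12.78, 13.50 and 16.28 at Longview, 12.49, 12.84 and 15.37 at Columbia City, and 12.27, 15.18 and 16.24 at Skamania. LSS_UF_10411, well above background on all 21 arrays, was not a member and had an r of -0.810 with LSS_UF_10838.

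The levels of LSS_UF_10411 at Longview were 14.32, 12.41, 14.62, 13.33, 13.39, 13.89 and 14.26 in fish 1 to 7. They were 12.29, 14.18, 14.06, 14.04, 13.95 and 12.33 at Columbia City in fish 1 to 6, and 12.19, 12.55, 13.20, 14.00, 12.18, 13.85, 12.46 and 12.53 at Skamania in fish 1 to 8. The 8 fish of the common set other than Longview 4 had its 8 lowest levels, at 12.55 or less. The same 8 fish had the 8 highest levels of LSS_UF_10410, at 14.45 or more. LSS_UF_10411 was singled out after its values were seen.

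Sequence names gave few other links between members. The names of 79 members mark contigs of 79 different assembly groups, so no group supplied more than 1 member. Names of single reads were carried by 21 members (20.8%), against 8.83% of all probes tested. For LSS_UF_14073, LSS_UF_10229, LSS_UF_16820 and LSS_UF_10410 another contig of their group was on the array, 7 in all and 5 of them among the probes tested. Besides LSS_UF_10411 these had an r with LSS_UF_10838 of 0.309, 0.316, -0.0888 and -0.195, so none of them followed it as the members did. No other contig of the group of LSS_UF_10838 was on the array.

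Members were unevenly placed on the array. It has 192 rows and 82 columns of spots. Rows 1 to 96 held 27 members and rows 97 to 192 held 74 (73.3%), beside 51.1% of all probes tested. The block with rows 1 to 96 and columns 1 to 41 held 9 members (8.91%), beside 24.6% of all probes. Among members well above background on all arrays, 11 of 43 were in rows 1 to 96. The 174 next probes with an r above 0.8 were placed less unevenly, with 64.4% in rows 97 to 192. LSS_UF_REP_20042, printed at 10 places, was counted at the first of them. These divisions of the array were chosen after the values were seen, and the part of array position in the choice of members was not tested.

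Adjoining spots were looked at as well. LSS_UF_12883, LSS_UF_19888, LSS_UF_21524 and LSS_UF_22489 had another member in an adjoining spot, and the share expected from placement was not worked out. The 7 tested probes adjoining LSS_UF_10838 had an r with it of -0.616 to 0.653. Steps were found in both sets of rows, in 14 of 27 members in rows 1 to 96 and 47 of 74 in rows 97 to 192.

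LSS_UF_REP_20042 was the one member printed 10 times, which allows its level to be set against the error between spots. Its r with LSS_UF_10838 was 0.912 and it was well above background on all arrays. Its log2 level was lowest in Columbia City 3, at 6.66, and highest in Columbia City 6, at 11.28. The SD between its spots on 1 array, with at least 8 left after outlier flags, had a median of 0.195, but it reached 1.03 in Skamania 7, 0.990 in Columbia City 6 and 0.806 in Skamania 1. Among fish below the common gap the SD was at most 0.282, in Columbia City 3. All fish above that gap had a larger SD except Longview 2, at 0.195. The spots thus disagreed most in fish of the common set, and the part of this in the split was not tested. Among 22 other probes printed 10 times, with a mean log2 signal of at least 7, the median SDs were 0.0557 to 0.110, and the highest on any array was 0.662. In the median and at the highest, the spots of this member disagreed more than those of these 22 probes. Some dimmer repeated probes disagreed more, such as LSS_UF_REP_20013 (mean log2 signal 4.20), with an SD of 1.38 in Skamania 7.

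In some fish, LSS_UF_REP_20042 had different signals in different parts of the array. In the block with rows 1 to 96 and columns 1 to 41 it had 5 spots, with log2 processed signals of 7.78 to 8.52 in Skamania 7, against 8.66 to 10.37 in its 5 spots elsewhere. In Columbia City 6 the same 5 spots had 8.74 to 9.43, against 9.76 to 11.10 elsewhere, and in Skamania 1 they had 8.19 to 9.05, against 9.11 to 10.37. In Longview 2 they had 9.89 to 10.38, against 9.49 to 10.27, and in Columbia City 4 they had 7.33 to 7.80, against 7.60 to 7.75. Unlike the SDs, these ranges keep spots with an outlier flag. The spot at 9.49 in Longview 2 had such a flag, and the lowest spot left there without it was at 9.80. The 2 sets of spots did not overlap in 6 fish, namely Longview 5, Columbia City 6 and Skamania 1, 2, 7 and 8. A split by columns, also chosen after the values were seen, parted the spots of some fish too. Spots in columns 42 to 82 were all above those in columns 1 to 41 in Longview 4, Columbia City 3 and 6, and Skamania 1, 6, 7 and 8. In Skamania 7 they had 10.24 to 10.37, against at most 9.14. In the other fish they overlapped, such as Skamania 5, with 8.88 to 9.39 against 8.32 to 9.53.

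Spot by spot, on signals scaled to the 75th percentile of each array, the r with LSS_UF_10838 was 0.728 to 0.809 in that block and 0.857 to 0.914 elsewhere. The range of the unscaled signals over fish, with flagged spots kept, was 3.86 to 4.34 log2 units in that block and 4.21 to 4.66 elsewhere. Every spot thus had a positive r with LSS_UF_10838, but not to the same degree. The r was 0.914, 0.908 and 0.904 in the spots in columns 42 to 82, and 0.888 or lower in the others. The lowest r of any member, on the authors' values, was 0.894. The difference between spots of the same array was as large as 6.02-fold, in Skamania 7. The cause of the difference between spots was not tested. Other probes printed 10 times were compared by SD only and not by place on the array. For the 100 members printed once, such an error between spots cannot be measured.

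Array measures differed between fish as well. The number of probes well above background was lowest in Skamania 5 (8179) and highest in Longview 7 (11806), in which LSS_UF_10838 had levels of 16.96 and 13.15. The 75th percentile of log2 processed signals was lowest in Skamania 5 (8.09) and highest in Skamania 4 (9.98), and in Skamania 4 LSS_UF_10838 was at 7.54. The authors' log2 values have the same median, 6.10, on every array. The part of these measures in the levels of the members was not tested. Fish on both sides of the common gap were found on each of the 3 slides, with 2 above and 4 below on slide 1, 3 and 5 on slide 2, and 4 and 3 on slide 3.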

How the data were processed

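Liver RNA of 21 fish was labelled with Cy3 and hybridised to 1-colour Agilent arrays, 1 fish per array, per the labels' protocols. The main values are the authors' deposited log2 values, 1 per probe and array. Their columns share a median of 6.10, each has a correlation of at least 0.994 with the log2 processed signal of its own array, and 117 values are missing, of which LSS_UF_19600 and LSS_UF_23290 have 1 each. The labels name no step that equalised them. The deposited scanner files hold linear intensity values and flags, read with Agilent Feature Extraction 9.1 per the submitters' processing notes and 10.1.1.1 per the file headers. Each array has 15208 non-control and 536 control spots. Control spots were left out, and spots of 1 probe were averaged. A probe was well above background if at least 1 of its spots had that flag. The number of arrays limits the precision.

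The 3 sites were compared by limma 3.58.1 under R 4.3.3 (lmFit and eBayes, 1 mean per site, 21 arrays, 18 residual degrees of freedom, two-sided, adjusted over 11040 probes, called at an adjusted p under 0.05). The same fit was also run on simulated data with independent noise for each probe, unlike the members, which rise and fall together. Fish are separate animals per the labels. Tables were made with Python 3.11.15.

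The members and the rules applied to them were chosen with earlier results of these data known. Named are LSS_UF_10838, the 10 highest r, the 5 largest and 5 smallest ranges and gap shares, the 3 brightest and 3 dimmest, 3 probes on each side of the edge, the 3 smallest F-test p-values since no member was called, and the member printed 10 times. Other probes were named after their values were seen. Lists of liver and cell type genes could not be used without gene names. Alternatives tried were the 75th percentile, the median, and normexp (offset 50) with quantile normalization of scanner signals, other filters, Spearman's rho, slide, replicate number, array weights, other gap limits, and leaving out each fish.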

Additional observations from a re-analysis of the deposited data

Results flagged for a closer look

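One value stood far from the rest of its site. LSS_UF_10410 had a level of 16.28 in Longview 2, against 12.78 to 13.88 in the other Longview fish. Of 114 groups of values examined, this was the 1 with such a gap. The limit is set for about 1 in 20 groups of independent, normally distributed values. The members follow each other over the same fish and many are stepped, so that rate does not apply here. The level is listed as a value only. Longview 2 is a fish above the gap in most members, and its level of LSS_UF_10838 was 16.58.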

How the results depend on the processing

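Of the members, counting LSS_UF_10838, the rule picked 94 again on signals scaled to the 75th percentile, 93 with slide means subtracted as well, 97 with no filter, 86 with a filter at 11 arrays, 83 with normexp, 81 by Spearman's rho and 72 without subtracting site means, and 91 to 100 with 1 fish left out. The 61 stepped members became 32 with a gap of at least 0.333 of the range, 36 with normexp, 11 with site means subtracted first, 49 on the 75th percentile scale, and 61 to 69 with 1 fish left out. The cause was not tested. With array weights 1 member, LSS_UF_24373, was called for Longview minus Skamania and 1 in the F test, and without Skamania 3 the same member was called for Longview minus Skamania. All other settings gave 0 members in all comparisons. Over all probes, the 170 calls for Longview minus Skamania became 313 with the 75th percentile, 295 with the median, 273 with array weights, 13 with normexp and 4 with the filter at 11 arrays, and the calls of the F test (0.915%) became 194, 184, 253, 3 and 1. The calls of the F test ran from 42 without Longview 2 to 221 without Columbia City 6. The 0 calls for Longview minus Columbia City became 150 without Columbia City 6 and 67 with array weights. They became 14 within slide 2, 4 with no filter, and 1 without Longview 4, Longview 6, Skamania 1 or Skamania 5. The 0 calls for Columbia City minus Skamania became 4 with array weights, 2 within slide 3 and 1 without Columbia City 1. Calls within slide 1 are not given for either comparison, since it held only 1 Columbia City fish. The 75th percentile scaling moved the median difference of all probes to 0.11 for Longview minus Skamania, where 98 members were then lower.

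The difference of LSS_UF_10838 between Longview and Skamania, -0.11, changed sign with slide as a fixed block (0.011), within slide 2 (1.55), within slide 3 (1.03) and with the replicate number as a block (0.45), and ran from -1.24 to 0.53 with 1 fish left out. Within slide 1 it was -2.43 and with array weights -1.64. Columbia City minus Skamania was negative in all settings (-5.50 to -2.76 with 1 fish left out, -8.52 within slide 1, -2.52 within slide 2, -1.80 within slide 3, -6.70 with array weights, unadjusted p = 0.00677 and adjusted p = 0.182 by limma). Longview minus Columbia City was positive in all settings (2.65 to 5.39 with 1 fish left out, 6.09 within slide 1, 2.83 within slide 3, 5.06 with array weights). Slide 1 held only 1 Columbia City fish, Columbia City 5, so -8.52 and 6.09 rest on that fish. Over 19 same-numbered pairs of fish from different sites the correlation of deviations was -0.484 to 0.402 with a median of -0.130. Over 127 other-numbered pairs it was -0.558 to 0.529 with a median of -0.00939. Same-numbered fish were thus not more alike in the median, but these correlations cannot exclude a pairing of the fish. The replicate block gave 0 called members and 126 calls over all probes for Longview minus Skamania.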
